A study of Mus musculus with 16 samples.

Results

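Fat is stored in cells as lipid droplets, cores of triglyceride held in a coat of proteins, and 10 genes of that storage and of fatty acid traffic were followed here in mouse tail tendon fascicles, the fine collagen fibre bundles pulled from the tail. They are the 5 perilipin genes Plin1 to Plin5, Hilpda, the lipid uptake genes Fabp4, Cd36 and Lpl, and the lipase gene Pnpla2. They were chosen by name, not by a threshold on their values, from 25719 gene identifiers, and the count tables held all 10. The study compared whole fascicles of wild type mice with fascicles of ScxCre;Vhl f/f mice, which the sample labels call KO and which are called knockout here. In the knockout, Cre recombinase under the control of Scx, a tendon transcription factor, deletes floxed Vhl in cells of the Scx lineage. Each genotype had 8 bulk RNA-seq libraries. The labels give neither the age nor the sex of the mice, do not say whether wild type mice carried floxed Vhl or Cre, and name no treatment. They also do not say that each library came from a separate animal, so p-values measure the spread between these libraries.

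As background, the Vhl protein marks the alpha subunits of the hypoxia-inducible factors (HIFs) for destruction when oxygen is present, and without it these factors act as in low oxygen. HIFs are known to shift cells from burning fatty acids towards storing them, and both Plin2 and Hilpda are known HIF-responsive genes. Perilipins coat the droplet and limit the access of lipases. Fatty acids reach the cell through Lpl, which frees them from lipoproteins, and through Cd36, which brings them across the membrane. Fabp4 carries them inside the cell. Pnpla2, also called ATGL, takes the first fatty acid off stored triglyceride, and Hilpda binds and inhibits it. Plin1 and Fabp4 are abundant in adipocytes, and Cd36 and Fabp4 are also made by capillary endothelial cells, so all 3 can reach a bulk library with cells other than tenocytes.

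The targeted gene matched the labels in all 16 libraries. Vhl stood between 14.1 and 25.8 CPM (counts scaled to a common library total) in wild type and between 7.51 and 10.9 in knockout, a log2 fold change of -1.13 (SE 0.113, edgeR adjusted p = 9.64e-08). CPM here were scaled with trimmed mean of M-values (TMM) factors, and adjusted p is the Benjamini-Hochberg value of edgeR's quasi-likelihood test over all 14803 genes with enough counts. Libraries held 10792900 to 16379401 counts in wild type and 10488355 to 18753254 in knockout, so that 3 counts equal 0.209 to 0.336 and 0.145 to 0.256 CPM. The summed level of 8 tenocyte markers was 130080 to 379480 CPM in wild type and 77411 to 180870 CPM in knockout, and 5 of these genes fell and 1 rose. At adjusted p under 0.05 the genotypes differed in 7151 genes, which is 48.3% of those tested, with 3792 higher and 3359 lower in knockout (53.0% higher). With total counts in place of TMM factors the split was 8270 higher and 1415 lower (85.4% higher), and the median log2 fold change of all tested genes moved from 0.02 to 0.32.

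Marker RNA of other cell types differed between the libraries, and 3 knockout libraries stood apart. Adipoq, the adipocyte hormone adiponectin, had 1 count in wild type library 3 and 0 in the other 7, and exceeded 3 counts only in knockout libraries 6, 7 and 8, with 19, 48 and 8 counts. Cidec, an adipocyte droplet protein, exceeded 3 counts in the same 3 libraries and stood at 0 or 1 in wild type. Not every adipocyte marker behaved so. Lep, the hormone leptin, had 2 to 5 counts in wild type, but 0 in 7 knockout libraries and at most 10 in knockout. Adrb3 had at most 5 counts in wild type and at most 3 in knockout. The 12 adipocyte markers summed to 29.6 to 43.9 CPM in wild type and 26.1 to 59.8 CPM in knockout, and 3 of them had enough counts to test, of which 1, Pparg, rose. The lipid pathway lists used further on also hold Lipe, Pparg, Adrb3, Cidec and Cebpa of these markers. Endothelial markers moved further: 6 of the 8 tested (of 12 listed) rose, the sum of all 12 was 39.6 to 56.8 CPM in wild type and 57.9 to 521 CPM in knockout, and Pecam1, an endothelial junction protein, had 3 to 21 counts in wild type and 54 to 3058 in knockout. Tek, also on that list, held a mean of 22.7 CPM in wild type and 21.4 CPM in knockout and did not pass (log2 fold change -0.08, edgeR adjusted p = 0.738). Skeletal muscle markers summed to 102 to 10110 CPM in wild type and 403 to 24142 CPM in knockout, again highest in knockout libraries 6, 7 and 8, and 2 of the 12 rose. Acta1, a muscle actin, had 25 to 7457 counts in wild type and 789 to 40134 in knockout, and Ckm, muscle creatine kinase, 5 to 2987 and 100 to 6986. Macrophage markers summed to 1189 to 1732 CPM in wild type and 1320 to 1937 CPM in knockout, with 3 of 10 higher, and Adgre1 rose by 0.41 (edgeR adjusted p = 0.00452). Keratinocyte markers were low: Krt5 had at most 1 count in any library, and Krt1 and Krt15 stood at 0 in all of them. Their 8 genes summed to 23.4 to 57.4 CPM in wild type and 14.5 to 20.2 CPM in knockout, and 3 of the 3 tested fell. Beside these marker counts, 25.6% of all tested genes rose and 22.7% fell. The part of these cells in each result was not tested beyond the values given beside it. In bulk tissue, a change in the number of cells of a type and a change in RNA per cell cannot be told apart.

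The start regions of 3 of the genes are shown because 2 of them, Hilpda and Plin2, were higher in every knockout library than in any wild type library and the third, Plin3, was lower. HIFs bind a short core, ACGTG or GCGTG, which was searched on both strands in the RefSeq windows of build GRCm38.p6 that run from 250 bases before to 50 bases after each annotated gene start. The letters shown are the first 280 bases of the window, 5′ to 3′ on the gene's strand, so the start lies 30 bases from the end, and capitals mark each match. The intervals are chr6:29272376-29272655 on the plus strand (Hilpda), chr4:86670030-86670309 on the minus strand (Plin2) and chr17:56290482-56290761 on the minus strand (Plin3).
Hilpda: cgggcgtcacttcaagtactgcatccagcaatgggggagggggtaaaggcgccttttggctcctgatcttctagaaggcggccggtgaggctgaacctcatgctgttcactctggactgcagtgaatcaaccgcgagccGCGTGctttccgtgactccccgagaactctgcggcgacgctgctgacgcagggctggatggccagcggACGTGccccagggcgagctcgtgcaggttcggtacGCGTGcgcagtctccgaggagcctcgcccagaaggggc
Plin2: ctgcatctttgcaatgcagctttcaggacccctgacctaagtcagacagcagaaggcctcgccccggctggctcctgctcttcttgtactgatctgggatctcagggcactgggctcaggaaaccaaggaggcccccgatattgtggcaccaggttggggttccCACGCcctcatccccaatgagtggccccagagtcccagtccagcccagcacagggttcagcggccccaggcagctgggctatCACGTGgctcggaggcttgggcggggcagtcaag
Plin3: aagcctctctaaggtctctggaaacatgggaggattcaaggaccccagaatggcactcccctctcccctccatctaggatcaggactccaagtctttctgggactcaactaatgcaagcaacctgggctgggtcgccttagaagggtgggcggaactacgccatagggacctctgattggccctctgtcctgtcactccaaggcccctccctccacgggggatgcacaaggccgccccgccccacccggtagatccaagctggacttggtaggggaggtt
Hilpda has 2 annotated starts and so 2 windows, which overlap. The one shown, with more matches, held 3, beginning 111, 43 and 8 bases before the start. The other held 1, beginning 28 bases after its own start. It is the same GCGTG as the match 111 bases before the start in the window shown, and not a further one. The Plin2 window also held 3, beginning 86, 4 and 3 bases before the start, of which the last 2 are both strands of 1 palindrome, CACGTG, a motif known as an E-box. The Plin3 window held none. Of the 10 listed genes, 8 had at least 1 window, and 3 of these (Hilpda, Plin2 and Plin5) held a match in at least 1 window. Matches are common: 43.8% of all 32851 windows and 46.7% of all 27025 genes with a window hold 1 or more. A match is a description of the letters and no sign of binding.

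Of the 10 genes, 8 had enough counts to test, since Plin1 and Plin5 stayed under the filter on low counts. Past the threshold, 4 rose (Plin2, Hilpda, Fabp4 and Cd36) and 2 fell (Plin3 and Pnpla2), beside 25.6% and 22.7% of all tested genes, while Plin4 and Lpl did not pass. The median log2 fold change of the 8 genes was 0.72, beside 0.02 for all tested genes. With total counts the same 4 passed as higher, and Plin3 and Pnpla2 no longer passed, with log2 values of -0.10 and -0.12 beside a median of all genes of 0.32 (edgeR adjusted p = 0.279 and 0.486). Wild type and knockout libraries did not overlap at all for 3 of the 8 (Plin2 and Hilpda higher, Plin3 lower), beside 19.4% of all tested genes (10.8% higher and 8.61% lower). With 48.3% of all genes past the threshold, the count of 6 of 8 does not by itself set these genes apart.

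**Figure D1:**
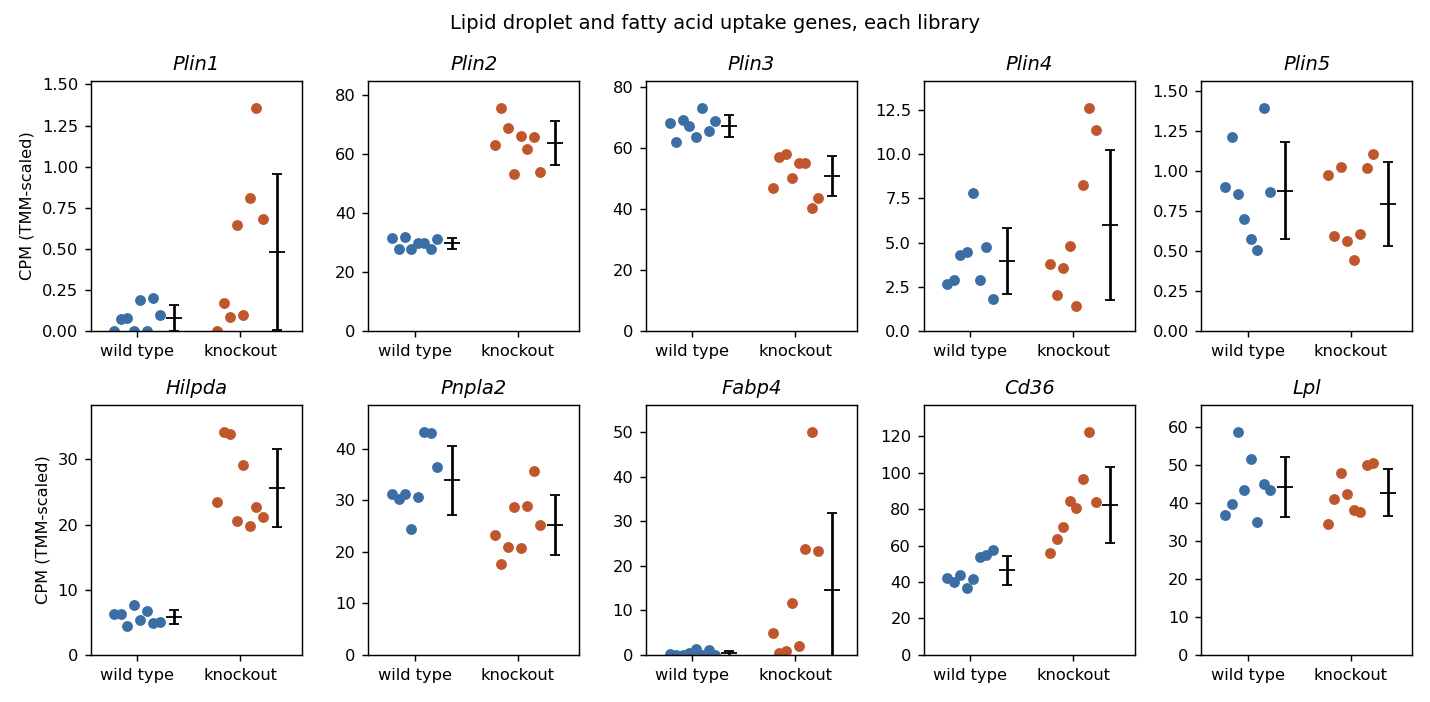
Level of each of the 10 genes in every library, in TMM-scaled CPM on linear axes, libraries ordered 1 to 8 within each genotype, with the mean and SD as a bar beside the points. Plin2 and Hilpda separate completely upwards and Plin3 downwards, while Plin1 and Fabp4 lie near 0 in wild type and scatter widely in knockout, with knockout libraries 6, 7 and 8 at the top for Plin4.

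Among the droplet coat genes, Plin2 and Plin3 moved in opposite directions. Plin2 (ENSMUSG00000028494, chromosome 4), the perilipin found on droplets of most cell types, ranged over 27.8, 29.95 and 32.1 CPM (lowest, median, highest) in wild type and 53.4, 64.6 and 75.7 CPM in knockout. All knockout libraries lay above all wild type libraries, and the lowest knockout libraries were 4 and 8. The mean was 29.8 ± 1.80 CPM in wild type and 63.6 ± 7.45 in knockout (SD, n = 8 each), a 2.13-fold rise (log2 fold change 1.09, SE 0.0709, edgeR adjusted p = 1.82e-10). The wild type libraries spread little, and the difference between the means was larger than the spread of either group. Without knockout libraries 6, 7 and 8 the log2 fold change was 1.13, and with the endothelial marker level as a covariate it was 1.33.

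Plin3 (ENSMUSG00000024197, chromosome 17), a perilipin of the cytosol that also coats nascent droplets, had 62.0, 67.6 and 73.1 CPM in wild type and 40.4, 52.5 and 58.1 CPM in knockout. The groups did not overlap, and knockout libraries 7 and 8 were the lowest. Its mean fell from 67.2 ± 3.49 to 50.7 ± 6.58 CPM (SD, n = 8 each; log2 fold change -0.40, SE 0.0724, edgeR adjusted p = 1.15e-04). The fall is close in size to the shift between scalings. Without knockout libraries 6, 7 and 8 the value was -0.34 (edgeR adjusted p = 5.19e-04). With the endothelial marker level as a covariate it was -0.08 (edgeR adjusted p = 0.675). Within a library the scaling cancels: Plin2 gave 0.411 to 0.470 counts per count of Plin3 in wild type and 1.07 to 1.63 in knockout. This ratio was chosen after the values were seen and is a description; it shows that the share of Plin2 between these perilipins was higher in every knockout library, whatever the scaling.

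The other perilipins were low. Plin4 (ENSMUSG00000002831, chromosome 17), a perilipin of adipocytes and muscle, had 1.83, 3.58 and 7.78 CPM in wild type and 1.43, 4.31 and 12.6 CPM in knockout. The groups overlapped, the highest wild type library was library 5, and knockout libraries 6, 7 and 8 held 8.26, 12.6 and 11.4 CPM. The log2 fold change of 0.61 did not pass (SE 0.420, 95% interval -0.29 to 1.51, edgeR adjusted p = 0.247), and without those 3 knockout libraries it was -0.35. Those 3 libraries and wild type library 5 are also the ones with the highest skeletal muscle marker sums of their genotype. In wild type, the log2 level of Plin4 went with the mean log2 muscle marker level (Pearson r = 0.949, exact permutation p = 0.000198, adjusted 0.00595 over 60 relations; Spearman rho = 0.905, exact permutation p = 0.00456, adjusted 0.0304; r = 0.883 without libraries 5 and 7, which lie farthest from the median). In knockout it went with the adipocyte level (Pearson r = 0.918, exact permutation p = 0.000818, adjusted 0.0107; Spearman rho = 0.929, exact permutation p = 0.00223, adjusted 0.0191; r = 0.946 without libraries 6 and 7) and with the endothelial level (Pearson r = 0.880, exact permutation p = 0.00600, adjusted 0.0301; Spearman rho = 0.929, exact permutation p = 0.00223, adjusted 0.0191; r = 0.992 without libraries 2 and 3). For muscle the relation in knockout was Pearson r = 0.942 (exact permutation p = 0.000794, adjusted 0.0107). Spearman rho was 0.929 (exact permutation p = 0.00223, adjusted 0.0191), and r was 0.873 without libraries 7 and 8. In the muscle sums libraries 6, 7 and 8 form a cluster of their own. They were also the 3 highest in the endothelial sums, and which marker level Plin4 followed was not tested. With the endothelial marker level as a covariate the knockout coefficient of Plin4 was -2.05 (edgeR adjusted p = 0.00213), so its direction depended on the setting. One limit is that 17 bases of its exons overlap those of Hdgfl2 on the opposite strand, and whether the counting used strand is not given in the sources used here.

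Plin5 (ENSMUSG00000011305, chromosome 17), a perilipin of oxidative tissues that links droplets to mitochondria, had 6 to 16 counts in wild type and 7 to 21 in knockout. Its mean was 0.876 ± 0.302 CPM in wild type and 0.791 ± 0.262 in knockout (SD, n = 8 each), and without the filter it did not pass (edgeR adjusted p = 0.655). Plin1 (ENSMUSG00000030546, chromosome 7), the adipocyte perilipin, is the gene that marks fat tissue carried along with the fascicles. It had 0 to 2 counts in wild type, with 3 libraries at 0, and 0 to 28 counts in knockout. Only 4 libraries exceeded 3 counts: knockout library 4 with 8 counts and knockout libraries 6, 7 and 8 with 16, 28 and 8. The last 3 are those with Adipoq and Cidec. Without the filter Plin1 passed (edgeR adjusted p = 0.00975), but 7 counts in all 8 wild type libraries against 65 in the 8 knockout libraries are too few for a fold change to be given.

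Hilpda and Pnpla2, the inhibitor and its lipase, also moved apart. Hilpda (ENSMUSG00000043421, chromosome 6), one of whose windows holds the 3 cores shown above, had 4.37, 5.74 and 7.60 CPM in wild type and 19.8, 23.0 and 34.3 CPM in knockout. Every knockout library lay well above every wild type library, with knockout libraries 2 and 3 the highest. The rise from 5.79 ± 1.08 to 25.6 ± 5.94 CPM (SD, n = 8 each) was 4.42-fold (log2 fold change 2.14, SE 0.143, edgeR adjusted p = 3.00e-10). Knockout libraries 2 and 3 were also those with the lowest endothelial marker sums of their genotype, 57.9 and 76.0 CPM. Over the 8 knockout libraries the log2 level of Hilpda fell as the endothelial level rose (Pearson r = -0.910, exact permutation p = 0.00352, adjusted 0.0235; Spearman rho = -0.786, exact permutation p = 0.0279, adjusted 0.0986; r = -0.731 without libraries 2 and 3). With that level as a covariate its log2 fold change was 2.77, and without knockout libraries 6, 7 and 8 it was 2.27.

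Pnpla2 (ENSMUSG00000025509, chromosome 7) had 24.5, 31.3 and 43.4 CPM in wild type and 17.7, 24.2 and 35.8 CPM in knockout. The groups overlapped, and the highest knockout library was library 7. Its mean fell from 33.9 ± 6.62 to 25.2 ± 5.82 CPM (SD, n = 8 each; log2 fold change -0.42, SE 0.139, edgeR adjusted p = 0.0171). Unlike Hilpda, Pnpla2 was higher in the knockout libraries with more endothelial RNA (Pearson r = 0.909, exact permutation p = 0.00208, adjusted 0.0156; Spearman rho = 0.905, exact permutation p = 0.00456, adjusted 0.0304; r = 0.832 without libraries 2 and 3). It was also higher in those with more adipocyte RNA (Pearson r = 0.925, exact permutation p = 0.00109, adjusted 0.0109; Spearman rho = 0.952, exact permutation p = 0.00114, adjusted 0.0191; r = 0.802 without libraries 6 and 7). Without knockout libraries 6, 7 and 8 the value was -0.61, and with the endothelial level as a covariate -1.09 (edgeR adjusted p = 8.45e-04). As given above, it was -0.12 and did not pass with total counts, so the size of the fall depended on the setting. Hilpda counts per Pnpla2 count, a ratio chosen after the values were seen, were 0.113 to 0.311 in wild type and 0.633 to 1.94 in knockout.

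The uptake genes gave 3 different pictures. Cd36 (ENSMUSG00000002944, chromosome 5) had 36.9, 43.0 and 57.6 CPM in wild type and 55.8, 82.4 and 122.5 CPM in knockout. The groups met only at the edge, where the lowest knockout library, library 1, lay below the highest wild type library, library 8. It rose from 46.3 ± 7.84 to 82.2 ± 20.8 CPM (SD, n = 8 each), a log2 fold change of 0.83 (SE 0.141, edgeR adjusted p = 8.33e-05). Without knockout libraries 6, 7 and 8 it was 0.61 (edgeR adjusted p = 5.78e-04), and with the endothelial level as a covariate it was 0.27 and did not pass (edgeR adjusted p = 0.402). With the adipocyte level as a covariate it was 0.56 and passed (edgeR adjusted p = 9.57e-04). The macrophage level was used neither as a covariate nor in a correlation. Wild type libraries 6, 7 and 8 had the highest Cd36 of their genotype (53.8, 54.6 and 57.6 CPM). Their macrophage sums were also the highest in wild type (1558, 1625 and 1732 CPM). In knockout, library 7 was highest in Cd36, but its macrophage sum of 1408 CPM lay below the knockout median of 1626 CPM. A part of macrophage RNA in Cd36 was not tested. Over the knockout libraries the log2 level of Cd36 went with the adipocyte level (Pearson r = 0.862, exact permutation p = 0.00600, adjusted 0.0301; Spearman rho = 0.857, exact permutation p = 0.0107, adjusted 0.0643), but r was 0.556 without libraries 6 and 7, so the relation rests on those libraries. With the endothelial level it did not pass (Pearson r = 0.688, exact permutation p = 0.0586, adjusted 0.167; Spearman rho = 0.786, exact permutation p = 0.0279, adjusted 0.0986; r = 0.595 without libraries 2 and 3).

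Fabp4 (ENSMUSG00000062515, chromosome 3) was almost absent from wild type. Its counts were 0 to 14 with a median of 1 in wild type and 6 to 1033 with a median of 103 in knockout. In CPM these are 0, 0.0982 and 1.34 (lowest, median, highest) against 0.510, 8.29 and 50.1. The lowest knockout library, library 2, lay below the highest wild type library, library 5, so the groups overlapped. The means were 0.392 ± 0.525 and 14.6 ± 17.2 CPM (SD, n = 8 each). The fitted log2 fold change was 5.27 (SE 1.07, edgeR adjusted p = 8.12e-04). Its size has a limit, since wild type lies near the floor. The value was 5.22 with DESeq2's Wald test and 4.98 with limma-voom. Over the knockout libraries the log2 level of Fabp4 followed the endothelial marker level closely (Pearson r = 0.991, exact permutation p = 4.96e-05, adjusted 0.00298; Spearman rho = 0.976, exact permutation p = 0.000397, adjusted 0.0191; r = 0.980 without libraries 2 and 3). It also followed the adipocyte level (Pearson r = 0.908, exact permutation p = 0.00134, adjusted 0.0115; Spearman rho = 0.929, exact permutation p = 0.00223, adjusted 0.0191; r = 0.892 without libraries 6 and 7). With the endothelial level as a covariate the coefficient was -1.45 and did not pass (edgeR adjusted p = 0.119), and without knockout libraries 6, 7 and 8 it was 3.36 (edgeR adjusted p = 0.00588). With the adipocyte and muscle levels as covariates the coefficient was 2.69 and 3.75 and passed (edgeR adjusted p = 0.00399 and 2.83e-04). Within wild type, Fabp4 went with the muscle level (Pearson r = 0.907, exact permutation p = 0.000893, adjusted 0.0107). Spearman rho was 0.929 there (exact permutation p = 0.00223, adjusted 0.0191), and r was 0.792 without libraries 5 and 7. The rises of Fabp4 and of endothelial RNA cannot be told apart in these libraries.

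**Figure D2:**
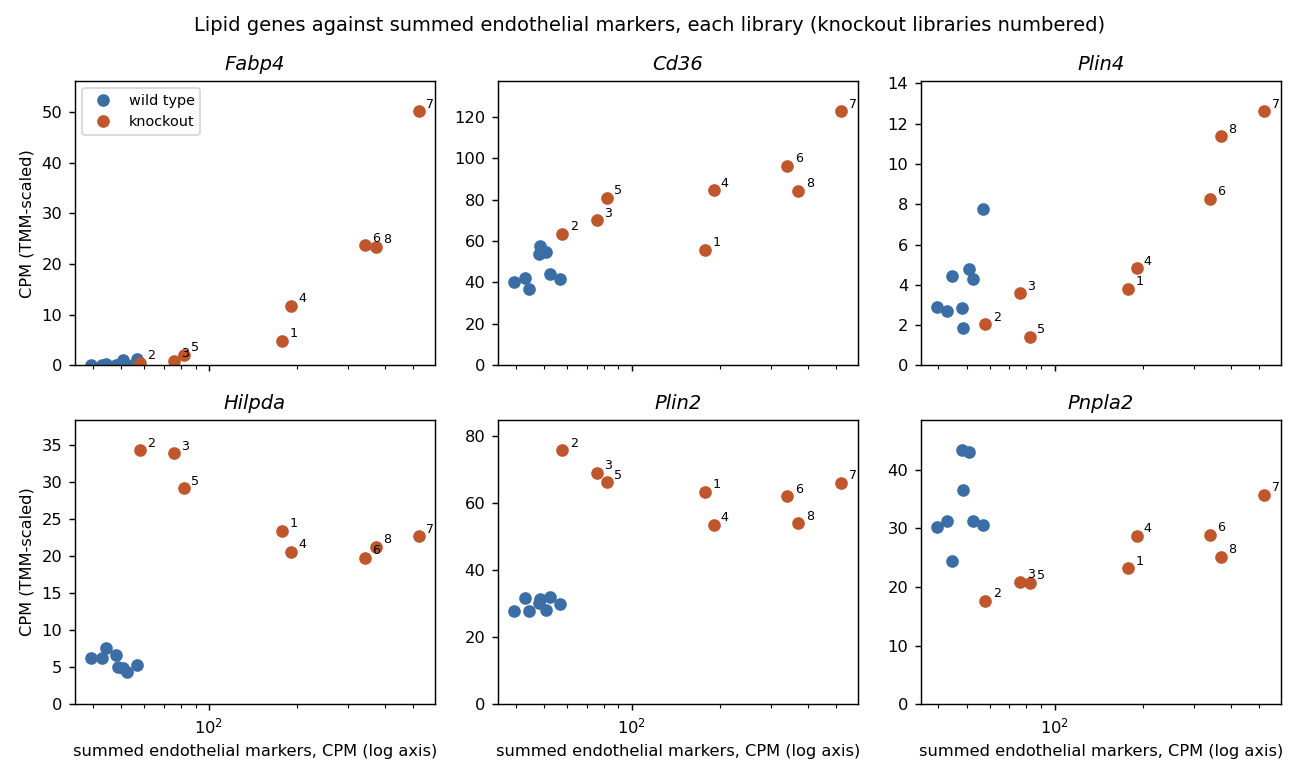
Level of Fabp4, Cd36, Plin4, Hilpda, Plin2 and Pnpla2 in each library (CPM, linear axis) against the summed level of the 12 endothelial markers (CPM, log axis), knockout libraries numbered. Across the 8 knockout libraries Fabp4 climbs along with the endothelial level, and Hilpda is highest in the libraries with the lowest sums. The wild type libraries lie within 39.6 to 56.8 CPM of summed endothelial markers, a sum that includes Tek.

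Lpl (ENSMUSG00000015568, chromosome 8) had 35.2, 43.5 and 58.9 CPM in wild type and 34.4, 41.8 and 50.6 CPM in knockout. The groups covered the same range. The means were 44.3 ± 7.80 and 42.8 ± 6.11 CPM (SD, n = 8 each), and the log2 fold change of -0.05 did not pass (SE 0.105, edgeR adjusted p = 0.725). The 95% interval of -0.28 to 0.18 leaves room for modest changes in either direction, and leaving out wild type library 3, the highest, turned the sign to 0.01. Proteins that act on Lpl outside the cell were also read. Gpihbp1, the endothelial protein that carries and anchors Lpl, had 0 to 2 counts in wild type and 6 to 356 in knockout, and did not pass the filter on low counts. Its lowest knockout libraries, 2 and 3, held 9 and 6 counts. Angptl4, a secreted inhibitor of Lpl, ranged over 0.558 to 1.91 CPM in wild type and 2.73 to 47.6 CPM in knockout with no overlap (log2 fold change 4.42, SE 0.631, edgeR adjusted p = 3.12e-05). Gpihbp1 is also on the endothelial marker list, and it was chosen for mention after its values were seen.

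**Figure D3:**
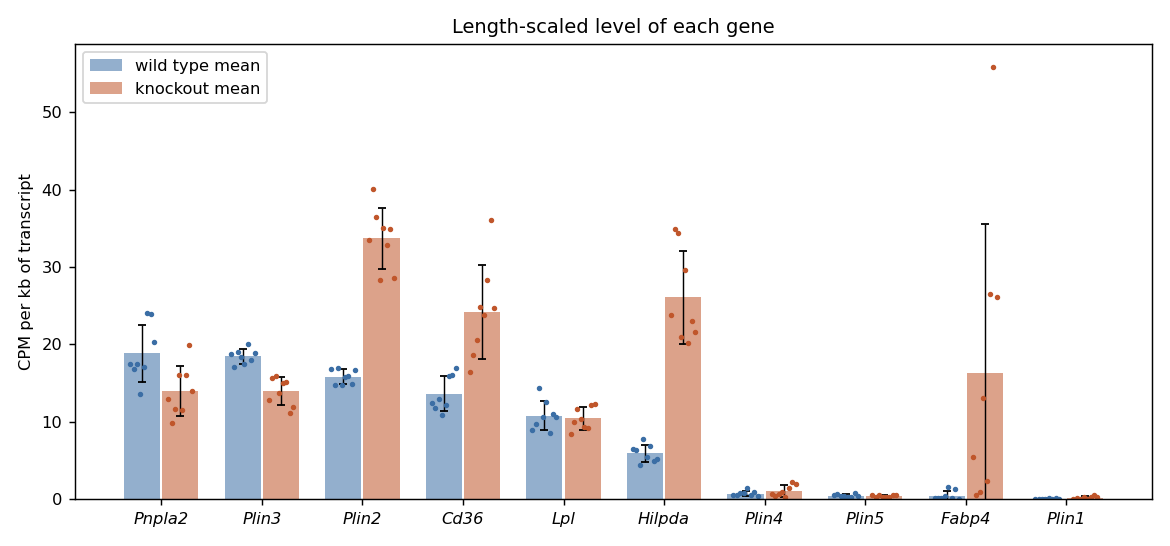
Mean level of each of the 10 genes per kilobase of its transcript (CPM per kb, linear axis) in wild type and knockout, with points for single libraries and error bars for the SD over 8 libraries. Pnpla2 and Plin3 lead in wild type, and Plin2 and Hilpda in knockout, while Plin1 is lowest in both.

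Per kilobase of transcript, which allows levels of different genes to be compared, the order of the genes changed. In wild type, Pnpla2 stood at 18.8 ± 3.68, Plin3 at 18.4 ± 0.956, Plin2 at 15.8 ± 0.955, Cd36 at 13.6 ± 2.31, Lpl at 10.8 ± 1.90 and Hilpda at 5.89 ± 1.10 CPM per kb (SD, n = 8). Pnpla2 and Plin3 lay within their spread of each other, as did Plin2 and Cd36. In knockout, Plin2 led with 33.7 ± 3.94, followed by Hilpda at 26.1 ± 6.05 and Cd36 at 24.2 ± 6.12, then Fabp4 at 16.3 ± 19.2, Pnpla2 at 14.0 ± 3.23, Plin3 at 13.9 ± 1.80 and Lpl at 10.4 ± 1.48 CPM per kb. Hilpda and Cd36 were within their spread there, as were Pnpla2 and Plin3. Fabp4 ranged from 0.569 to 55.9 CPM per kb over the knockout libraries, and its SD exceeded its mean. Its place in this order by means is therefore not settled. Plin4, Plin5 and Plin1 came last in knockout, at 1.04, 0.398 and 0.171 CPM per kb. In both genotypes Plin2 and Plin3 were far above the other 3 perilipins.

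The rest of the lipid pathway was described with 6 lists of 101 genes, none of them among the 10, of which 83 could be tested. In all, 27 rose and 27 fell, which is 65.1% of those tested beside 48.3% of all genes, and the median log2 fold change was 0.05. With total counts the split was 47 higher and 8 lower. The direction differed between the steps of the pathway.

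**Figure D4:**
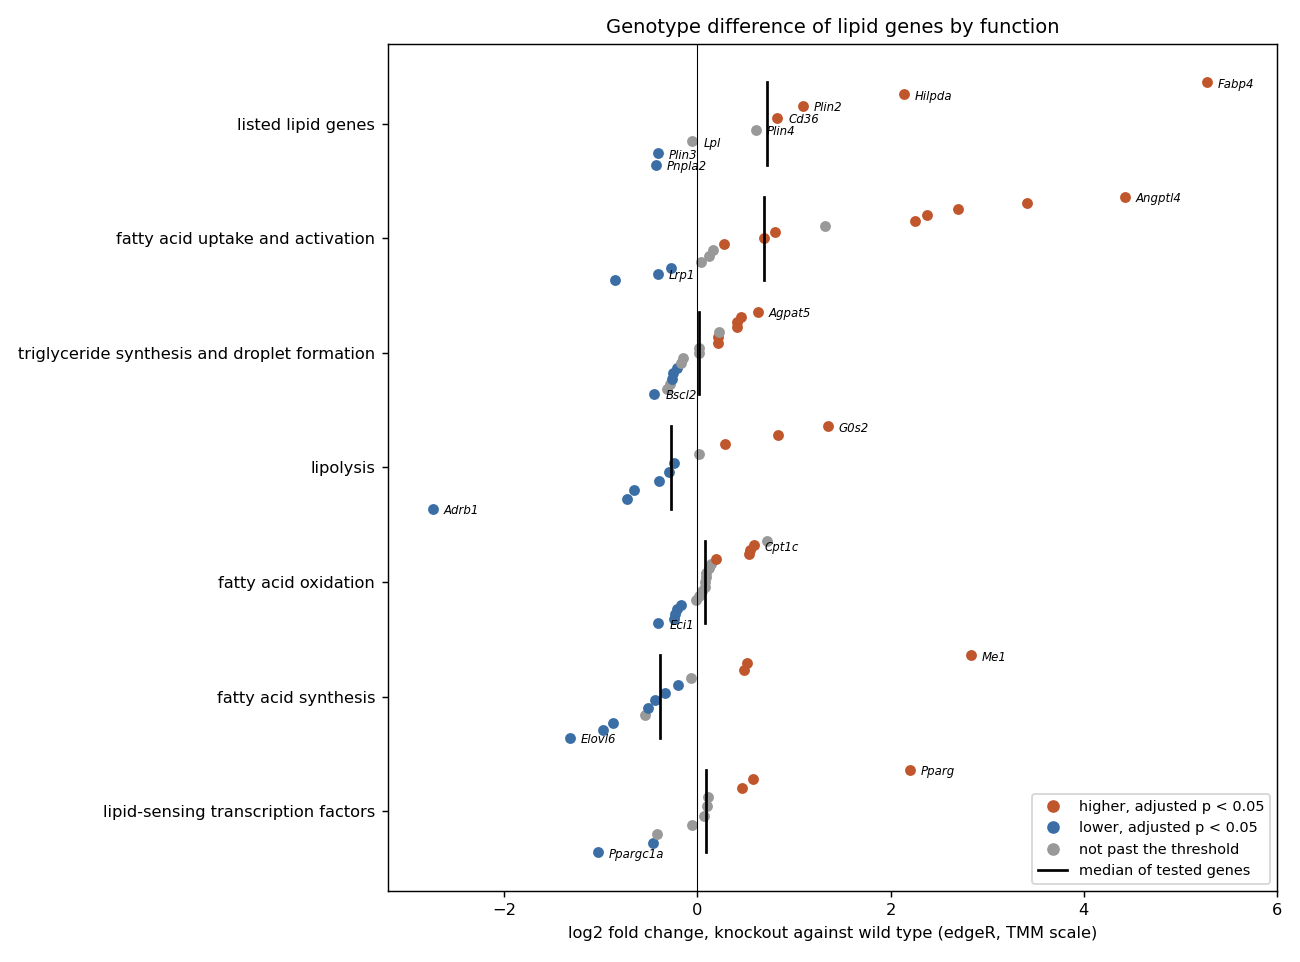
Log2 fold change, knockout against wild type, of each tested gene by list, coloured by whether it passed adjusted p under 0.05 and in which direction, with a bar at the list's median. The uptake list leans to higher values with a median of 0.69, and the lipolysis and fatty acid synthesis lists lean to lower values with medians of -0.27 and -0.38.

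Genes of fatty acid uptake and activation leaned upwards: 8 of the 15 tested (of 22 listed) rose and 3 fell, with a median of 0.69. Past the threshold were 73.3%, beside 48.3% of all genes. The 8 include Angptl4, named above as an inhibitor of Lpl, so they do not all act towards uptake. They also include Fabp3, chosen after its values were seen. It held 29.6, 26.9 and 13.7 CPM in knockout libraries 6, 7 and 8, beside a knockout median of 3.26 CPM. Vldlr, a receptor for triglyceride-rich lipoproteins, rose from 45.6 ± 15.4 to 484 ± 99.7 CPM (SD, n = 8 each; log2 fold change 3.41, SE 0.202, edgeR adjusted p = 1.66e-10) with no overlap. Slc27a3, of the fatty acid transport protein family, stood at 23.8 ± 6.23 and 124 ± 17.8 CPM, also with no overlap (log2 fold change 2.38, edgeR adjusted p = 1.13e-10), and was chosen for mention after its values were seen. Among the genes that fell, Lrp1, a broad scavenger receptor, did so by 0.41 in log2 terms (edgeR adjusted p = 0.00960), but did not pass with total counts or the endothelial covariate (-0.098 and -0.35, edgeR adjusted p = 0.453 and 0.334).

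Triglyceride synthesis and droplet formation showed no common direction, with 6 of 17 tested genes higher, 4 lower and 7 not past the threshold, and a median of 0.02. Past the threshold were 58.8%, beside 48.3% of all genes. Agpat5, an acyltransferase, rose by 0.63 (edgeR adjusted p = 4.47e-06), and Lpin1, a phosphatidate phosphatase, by 0.45 (edgeR adjusted p = 0.00798). Bscl2, which encodes seipin, a protein of the droplet's birth site, fell by 0.44 (edgeR adjusted p = 4.12e-04), and Agpat3, another acyltransferase, by 0.26 (edgeR adjusted p = 0.00187), a sign that turned to 0.04 with total counts. Lpin1 turned to -0.090 with the endothelial covariate and did not pass with the adipocyte or muscle covariate or without knockout libraries 6, 7 and 8 (0.22, 0.26 and 0.25, edgeR adjusted p = 0.175, 0.131 and 0.142). Bscl2 did not pass with total counts or the endothelial covariate (-0.13 and -0.18, edgeR adjusted p = 0.160 and 0.474). The changes of all 4 genes were smaller than that of Plin2.

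Lipolysis genes leaned downwards: of the 10 tested, 6 fell, 3 rose and 1 did not pass, with a median of -0.27. Past the threshold were 90%, beside 48.3% of all genes. The median is close in size to the shift between scalings, where the median of all genes moved from 0.02 to 0.32. The 3 that rose include G0s2, which like Hilpda inhibits Pnpla2, from 1.91 ± 0.575 to 4.88 ± 1.84 CPM (SD, n = 8 each; log2 fold change 1.35, SE 0.236, edgeR adjusted p = 9.19e-05) with no overlap. The list covers lipases, receptors that switch them on, and genes that hold lipolysis back, such as G0s2 and Pde3b. Pde3b was among the 6 that fell (-0.39, edgeR adjusted p = 0.00470) and was chosen after its values were seen. The lean of the list is therefore not a measure of lipolysis. Mgll, which cleaves the last fatty acid from monoglyceride, rose by 0.84 (edgeR adjusted p = 7.98e-07), again with no overlap. Adrb1, a beta-adrenergic receptor that switches lipolysis on, fell from 7.17 ± 1.05 to 1.08 ± 0.380 CPM (SD, n = 8 each; log2 fold change -2.73, edgeR adjusted p = 2.76e-10), without overlap. Abhd5, the coactivator of Pnpla2, fell by 0.30 (edgeR adjusted p = 6.93e-04), and Lipe, the hormone-sensitive lipase, did not pass (0.02, edgeR adjusted p = 0.901). Both were chosen for mention after their values were seen.

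Of the 19 fatty acid oxidation genes, all tested, 4 rose, 5 fell and 10 did not pass, with a median of 0.09. That is 47.4% past the threshold, close to the 48.3% of all genes. Cpt1c, a relative of the enzyme that admits fatty acids to mitochondria, rose by 0.59 (edgeR adjusted p = 0.00104) and Acadl, a dehydrogenase of long chains, by 0.54 (edgeR adjusted p = 0.00178). Eci1, an isomerase of unsaturated chains, fell by 0.40 (edgeR adjusted p = 9.24e-04) and Hadh by 0.24 (edgeR adjusted p = 0.0254). With total counts the sign of Hadh turned to 0.07 and Eci1 did not pass (-0.10, edgeR adjusted p = 0.406). With the endothelial covariate Acadl did not pass (0.063, edgeR adjusted p = 0.867), nor did Eci1 and Hadh (edgeR adjusted p = 0.0763 and 0.242). Hadh also missed the threshold with the muscle covariate and without wild type library 6 or 8 (edgeR adjusted p = 0.0619, 0.0573 and 0.0572).

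Fatty acid synthesis leaned downwards, with 7 of 12 tested genes lower, 3 higher and a median of -0.38. Past the threshold were 83.3%, beside 48.3% of all genes. Fasn, the fatty acid synthase, went down from 205 ± 57.2 to 104 ± 15.6 CPM (SD, n = 8 each; log2 fold change -0.97, edgeR adjusted p = 2.10e-05), and Elovl6, which lengthens its product, fell by 1.32 (edgeR adjusted p = 1.61e-05). Scd1, the desaturase that follows, fell by 0.88 (edgeR adjusted p = 1.69e-07) and was chosen for mention after its values were seen. None of these 3 overlapped between the groups. Me1, malic enzyme, which supplies NADPH, went the other way, from 17.3 ± 3.29 to 123 ± 18.9 CPM (SD, n = 8 each; log2 fold change 2.83, SE 0.120, edgeR adjusted p = 5.63e-13), and Acss2, which activates acetate, rose by 0.52 (edgeR adjusted p = 4.34e-06). The third gene that rose was Scd2, another desaturase, by 0.48 (edgeR adjusted p = 0.00934), with overlap between the groups. Scd1 and Scd2 thus moved in opposite directions, and Scd2 was also chosen after its values were seen. With the endothelial covariate Fasn and Acss2 did not pass (-0.77 and 0.28, edgeR adjusted p = 0.0664 and 0.0953).

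Of the lipid-sensing transcription factors, 3 of 10 tested rose, 2 fell and 5 did not pass, with a median of 0.09. The share past the threshold, 50%, is close to the 48.3% of all genes. Pparg, the main adipocyte regulator and one of the adipocyte markers, went from 0.487 ± 0.211 to 2.30 ± 1.21 CPM (SD, n = 8 each; log2 fold change 2.20, edgeR adjusted p = 6.29e-05). Nr1h3, a sterol sensor, rose by 0.57 (edgeR adjusted p = 0.00277). With the endothelial covariate neither passed, with values of 0.13 for Pparg and 0.12 for Nr1h3 (edgeR adjusted p = 0.870 and 0.792), and with the adipocyte covariate Nr1h3 was at 0.39 (edgeR adjusted p = 0.0531). Ppargc1a, a coactivator of mitochondrial genes, fell by 1.03 (edgeR adjusted p = 0.00643), and Rxra, the shared partner of these receptors, by 0.46 (edgeR adjusted p = 2.10e-05). Exons of Agpat3, Agpat5, Bscl2, Mgll, Abhd5, Lipe, Cpt1c, Elovl6, Acss2, Me1 and Nr1h3 overlap other annotated genes. So do exons of Fabp3, Scd2, Adrb3 and Cebpa. Without stated strand use the counts of all these genes may hold reads of a neighbour. For Bscl2, Scd2 and Nr1h3 an overlapping neighbour lies on the same strand.

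**Figure D5:**
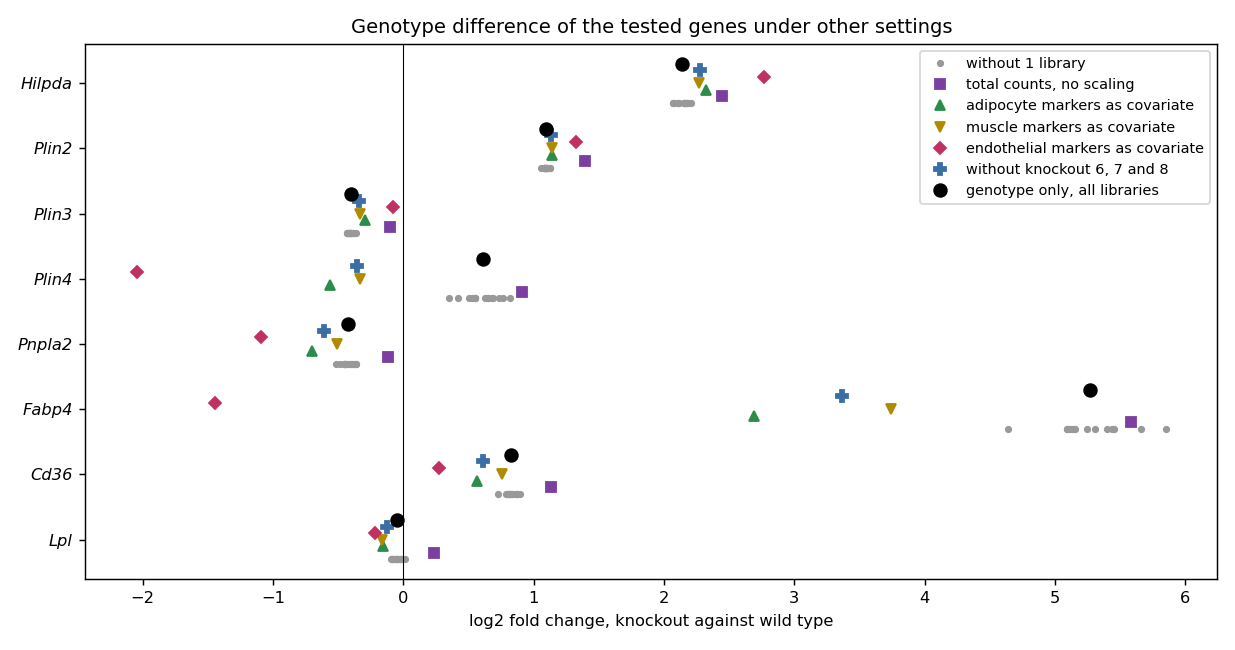
Log2 fold change of the 8 tested genes with all libraries and genotype alone (black), and under other settings: leaving out single libraries, total counts, a marker level as covariate, and without knockout libraries 6, 7 and 8. Hilpda and Plin2 stay on 1 side within a narrow range, while Fabp4 and Plin4 spread from negative to positive values.

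Of the 8 tested genes among the 10, Hilpda and Plin2 moved least relative to the size of their difference. Over 28 alternatives Hilpda ranged from 2.07 to 2.77 and Plin2 from 1.05 to 1.39, all past the threshold. For each of the 8 tested genes the value with the endothelial covariate lay outside the range over fits without 1 library. That covariate fit has a limit: the summed endothelial level did not overlap between the genotypes, with a highest wild type value of 56.8 and a lowest knockout value of 57.9 CPM, so the genotype and the endothelial level largely change together. The covariate is the mean log2 level of the list and not this sum. Tek weighs heavily in the wild type sum, with a mean of 22.7 CPM beside 0.867 for Pecam1 and 0.0595 for Robo4. In knockout these means were 21.4, 58.7 and 8.37 CPM. The narrow gap between the sums therefore does not measure how far the covariate separates the genotypes.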

How the data were processed

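RNA of whole tail tendon fascicles was sequenced in 8 wild type and 8 knockout libraries. The authors deposited 1 table of raw counts per gene and library. Per the submitters' processing notes, kallisto and featureCounts and build GRCm39 were used; versions, roles and strand setting are not given in the sources used here. Of 25719 Ensembl identifiers, 25614 matched a mouse symbol.

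Genes were kept by filterByExpr (14803) and tested with edgeR 4.0.16 (R 4.3.3; TMM, robust quasi-likelihood, genotype only, two-sided, Benjamini-Hochberg over all kept genes, threshold 0.05). The standard error is the log2 fold change divided by the root of F. CPM used TMM library sizes, and log2 CPM a prior count of 2. Marker levels used as covariate or in correlations are the mean log2 CPM of the list; the printed sums are summed CPM. Levels per kilobase used the longest principal transcript of GENCODE M21, a GRCm38 annotation, and no gene coordinates are printed because the builds differ. Promoter windows are RefSeq GRCm38.p6. Correlations within a genotype used exact permutation over 40320 pairings, adjusted over 60 relations. Intervals and floors cover counting error only where they come from counts.

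The genes and lists were chosen with earlier results of these data known. Named pathway genes are, per list, the 2 largest rises and 2 largest falls past the threshold; others are marked where named, and 2 genes under this rule are not reported here. Alternatives were other scalings and filters, DESeq2 1.42.0, limma 3.58.1, a replicate block, marker covariates and leaving out each library. The scripts were tested on simulated data.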

Additional observations from a re-analysis of the deposited data

Results flagged for a closer look

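The level of Fabp4 in knockout library 7, 50.1 CPM, stood apart from the other knockout libraries: the next highest held 23.7 CPM, and the gap was 0.532 of the range of the 8 libraries. The same library had the highest endothelial, muscle and adipocyte marker sums of all 16 libraries. It was 1 of 20 checks of the highest or lowest library of a group, of which chance alone gives about 1 in 20.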

How the results depend on the processing

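Of 224 values of the 8 tested genes over 28 alternatives each, 212 kept direction and side of the threshold, 4 lost the call and 8 changed sign; of 700 values of 25 other genes, 674, 23 and 3 did. Lpl turned to 0.23 with total counts, 0.034 with limma-voom and 0.015 without wild type replicate 3 (-0.093 to 0.015 over the fits without 1 library). Plin4 turned to -0.56, -0.33 and -2.05 with the adipocyte, muscle and endothelial covariate and to -0.35 without knockout libraries 6, 7 and 8, an alternative chosen after seeing the data. Fabp4 turned to -1.45 and Lpin1 to -0.090 with the endothelial covariate, and Agpat3 to 0.041 and Hadh to 0.066 with total counts. With the endothelial covariate 3788 genes in all and 26 pathway genes passed; of the 6 listed genes called otherwise, 3 also passed (Plin2, Hilpda and Pnpla2) and Plin4 passed in addition, as lower. In each case the cause was not tested. Of 60 correlations, 13 passed with 8 libraries (19 at an unadjusted exact permutation p under 0.05) and 0 with the 6 that remained after leaving out 2 (10 unadjusted); fewer libraries raise the smallest possible p. Leaving out 1 library at a time gave 6790 to 7151 genes, 47 to 54 pathway genes and 6 to 6 listed genes. DESeq2's Wald test gave 7381 genes. Same-numbered libraries deviated with correlations of -0.397 to 0.394, over 0.1 in 3 of 8 pairs, so the numbers do not pair them; a library correlated best with its own number for 1 of 8 in each genotype, and the replicate block gave 7010 genes, 51 pathway genes and 6 listed genes. Depth limits Plin1, Plin5 and Fabp4 in wild type, where libraries hold few or no counts.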
